A study of Mus musculus with 6 samples.

Results

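Nanog and 8 genes that lie close to it on mouse chromosome 6 (Phc1, Mfap5, Apobec1, Gdf3, Dppa3, Slc2a3, Foxj2 and Necap1) were examined in embryonic stem (ES) cells with and without Satb1. These 9 of 19938 genes tested were selected from their place on the chromosome and with the rise of Nanog and of its surroundings in the same 6 arrays already known, so their differences between the groups are given as a description and no test supports them. Each gene was read from the probe set that names it alone and, where there was more than 1, from the brightest over all arrays. The arrays came from 3 Satb1-/- samples (numbered 1-1, 1-2 and 2-1 as clones) and 3 WT samples (1, 2 and 3). Both genotypes carried a hygromycin-thymidine kinase reporter in the Oct4 locus, grew in LIF-supplemented serum medium, and were cultured for 3 days on irradiated feeder cells under hygromycin, which keeps cells that express Oct4. Most feeders were left behind when the suspension settled. What the first clone number stands for, and whether replicates were independent cultures, is not stated by the labels, so the p-values given here reflect array-to-array spread that may be technical alone. The comparison describes how Nanog differs between these Satb1-/- and WT ES cells, and whether it moves more than the genes beside it. Whether a difference comes from the loss of Satb1 or from other differences between the clones and WT cells was not tested.

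NANOG is a homeodomain transcription factor that holds ES cells in self-renewal together with OCT4 and SOX2. Its proximal promoter is known for a joint octamer and Sox element bound by OCT4 and SOX2. Several of its neighbours are also known for activity in pluripotent or germ cells, among them Dppa3 and Gdf3, while others act in all cells or in other tissues. SATB1 is a DNA-binding protein that folds chromatin into loops and recruits chromatin regulators. In bulk RNA, a change in the number of cells that express a gene and a change in the RNA of each cell cannot be told apart.

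RefSeq promoter windows (build GRCm38.p6, 250 bases before to 50 after a gene's start) were found for 5 of the 9 genes, in 6 windows. 3 are shown, since they set Nanog against the neighbour with the largest difference and against the neighbour with the smallest. They are the windows of Nanog (chr6:122707239-122707538, plus strand), Necap1 (chr6:122874307-122874606, plus strand) and Apobec1 (chr6:122602395-122602694, minus strand), each 5′ to 3′, with the octamer core TTTGCAT and the Sox core CATTGT in capitals on whichever strand they were found.
Nanog: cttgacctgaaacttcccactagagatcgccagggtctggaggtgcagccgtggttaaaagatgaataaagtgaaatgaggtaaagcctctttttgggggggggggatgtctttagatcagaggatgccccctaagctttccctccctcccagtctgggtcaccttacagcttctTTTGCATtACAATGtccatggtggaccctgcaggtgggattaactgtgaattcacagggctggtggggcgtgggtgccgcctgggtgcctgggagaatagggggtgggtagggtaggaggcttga
Necap1: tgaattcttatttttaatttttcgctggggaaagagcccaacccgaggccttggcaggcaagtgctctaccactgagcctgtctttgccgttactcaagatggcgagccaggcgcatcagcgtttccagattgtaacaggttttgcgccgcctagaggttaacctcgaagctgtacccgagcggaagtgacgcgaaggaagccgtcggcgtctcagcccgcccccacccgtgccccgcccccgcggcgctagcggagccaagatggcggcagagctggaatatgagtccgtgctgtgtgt
Apobec1: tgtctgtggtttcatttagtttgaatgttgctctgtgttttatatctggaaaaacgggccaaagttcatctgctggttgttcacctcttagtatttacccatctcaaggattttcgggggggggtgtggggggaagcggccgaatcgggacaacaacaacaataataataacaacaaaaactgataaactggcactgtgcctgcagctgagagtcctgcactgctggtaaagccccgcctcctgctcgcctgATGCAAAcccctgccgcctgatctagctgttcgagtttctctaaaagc

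In the Nanog window the octamer core began 75 bases before the start and the Sox core, on the other strand, followed after 1 base. The second Nanog window, from a start further downstream, holds the same stretch. These letters were chosen with the Nanog element in mind. Over all 32851 windows, both strands searched, 4.63% held TTTGCAT, 12.6% held CATTGT, and 2, both of them windows of Nanog, held the cores joined in this way. The Apobec1 window held the octamer core on the strand opposite to the printed one, and no Sox core. Along the printed strand this match began 2 bases after the start. The windows of Necap1, Phc1 and Foxj2 held neither. AAGGTCA, the sequence bound by the nuclear receptor Esrrb, was in none of the 6 windows and in 4.72% of all windows. A match is a run of letters and not a bound site.

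The 6 arrays had medians between 4.69 and 4.85 on the log2 scale. On the first principal component WT replicates 1, 2 and 3 lay at -26.7, -10.6 and -3.69, and the Satb1-/- arrays at 12.7 to 15.5. WT replicate 1 was thus the furthest from the Satb1-/- arrays. WT replicate 3 stood apart on the second principal component (-29.3, against 0.51 to 13.1 in the other arrays). Satb1, on chromosome 17, read 4.38, 4.47 and 4.57 in Satb1-/- arrays and 5.12, 4.99 and 5.31 in WT arrays, a difference of -0.67 (SE 0.12, limma adjusted p = 0.022). The sources used here do not say which exons were removed, so this value does not check the deletion. All 8 ES cell markers were brighter than the median gene, among them Tdgf1 (11.54 ± 0.02 in Satb1-/- and 11.60 ± 0.03 in WT, SD, n = 3 each) and Dppa5a. Their mean log2 value was 9.60 to 9.61 in Satb1-/- arrays and 9.41 to 9.66 in WT arrays. Of 7 measured feeder fibroblast markers 6 were brighter than the median gene, 7 had a positive difference (median 0.42) and 0 passed the test (limma, with 3 higher and 0 lower at an unadjusted p under 0.05, where 5.92% of all genes tested were higher and 4.55% lower). Their mean was 6.73 to 6.94 in Satb1-/- arrays and 6.13 to 6.83 in WT arrays, with Col1a1 and Dcn the brightest. Of 7 trophectoderm markers Krt8 (-2.72, limma adjusted p = 0.00209) and Krt18 (-2.48, limma adjusted p = 0.00514) fell, with 2 higher and 2 lower at an unadjusted p under 0.05. Eomes (0.55) and Tfap2c (0.33), named after their values were seen, lay above WT in every Satb1-/- array without passing the test. The 7 primitive endoderm markers had a median of -0.02 with Pdgfra and Dab2 the brightest. The part of these other cells in the values below was not tested.

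Nanog read 10.93, 11.00 and 10.93 in Satb1-/- arrays 1-1, 1-2 and 2-1, against 9.70, 9.99 and 9.91 in WT arrays 1, 2 and 3, all as log2 expression values. The groups did not overlap, and the lowest Satb1-/- array lay well above the highest WT array. The means were 10.95 ± 0.04 in Satb1-/- and 9.87 ± 0.15 in WT (SD, n = 3 each), a difference of 1.09 (SE 0.11) or a fold of 2.13. Leaving out any one array moved it between 1.00 and 1.15. RefSeq lists pseudogenes of Nanog on chromosomes 12 and X, and whether the probe set also takes up their transcripts was not tested.

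**Figure D1:**
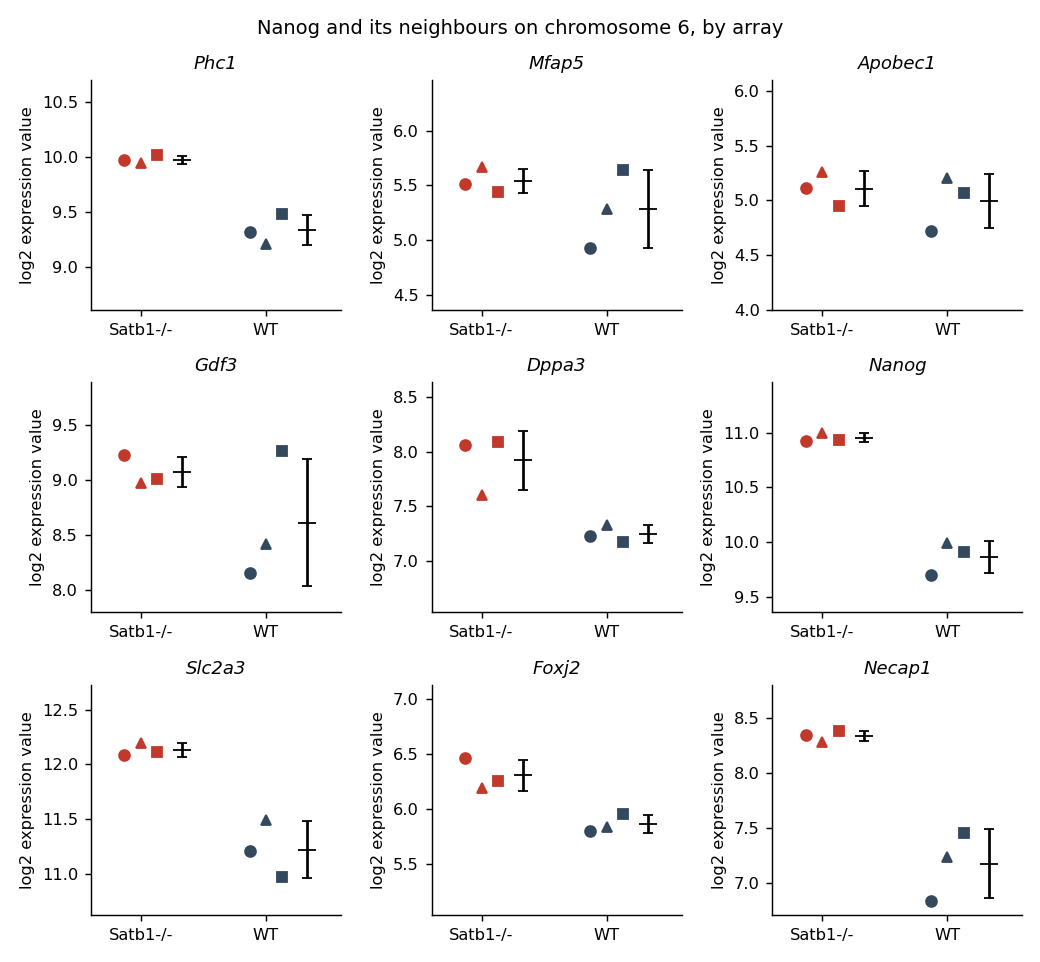
Log2 expression value (y axis, each panel spanning the same range of log2 units) of Nanog and its 8 neighbours in chromosome order, with Satb1-/- arrays in red (circle 1-1, triangle 1-2, square 2-1) and WT arrays in dark blue (circle 1, triangle 2, square 3); bars are the mean ± SD. In 6 of the 9 panels the Satb1-/- arrays all lie above the WT arrays, while Mfap5, Apobec1 and Gdf3 overlap.

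Among the neighbours active in pluripotent cells, Dppa3 and Phc1 were higher in every Satb1-/- array and Gdf3 was not. Dppa3 encodes Stella, which guards the early embryo's maternal genome from demethylation, and read 8.06, 7.61 and 8.09 in Satb1-/- arrays and 7.23, 7.33 and 7.18 in WT arrays. Array 1-2 was the low one in the Satb1-/- group, 0.36 above the WT mean where 1-1 and 2-1 were 0.82 and 0.84 above it. Its difference was 0.67 (SE 0.14). A second probe set named for Dppa3 read 7.64, 7.46 and 7.60 in Satb1-/- arrays and 6.47, 6.60 and 6.60 in WT arrays, a difference of 1.01. Of the 20 probe sets with the nearest ID numbers to this second one 19 name genes of the X chromosome, where RefSeq lists the pseudogene Dppa3-ps, whereas 18 of those around the first name genes of chromosome 6. Which transcript each probe set reads was not tested.

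Phc1 encodes a subunit of Polycomb repressive complex 1, which keeps developmental genes silent. It read 9.97, 9.94 and 10.02 in Satb1-/- arrays and 9.31, 9.21 and 9.48 in WT arrays, a difference of 0.64 (SE 0.11). The Satb1-/- values lay close together and clear of the WT values. Gdf3, a ligand of the TGF-beta family that acts alongside Nodal in the early embryo, read 9.23, 8.98 and 9.01 in Satb1-/- arrays and 8.16, 8.41 and 9.27 in WT arrays. WT replicate 3 was above all Satb1-/- arrays, so the groups overlapped. The difference was 0.46 (SE 0.24) with all arrays, 0.23 without WT replicate 1, and 0.79 without WT replicate 3, when Gdf3 passed the test.

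Necap1 had the largest difference of the set with all arrays, and Slc2a3 was the next neighbour after it. Necap1, which encodes an accessory protein of clathrin-coated vesicles, read 8.35, 8.29 and 8.38 in Satb1-/- arrays and 6.83, 7.24 and 7.45 in WT arrays. The WT arrays were spread far more widely than the Satb1-/- arrays, and the groups lay well apart. Its difference was 1.16 (SE 0.15), a fold of 2.24. Slc2a3, the next tested gene after Nanog, encodes a high-affinity glucose transporter and read 12.08, 12.20 and 12.11 in Satb1-/- arrays and 11.21, 11.49 and 10.98 in WT arrays. Its difference was 0.91 (SE 0.13), a fold of 1.88, with no overlap. Foxj2, which encodes a forkhead transcription factor, read 6.47, 6.19 and 6.26 in Satb1-/- arrays and 5.80, 5.83 and 5.96 in WT arrays. The groups did not overlap, with a difference of 0.44 (SE 0.11), and array 1-1 was the highest.

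Mfap5 and Apobec1, known from other tissues, had the smallest differences. Mfap5, a glycoprotein gene of the microfibrils of connective tissue, read 5.51, 5.66 and 5.44 in Satb1-/- arrays and 4.93, 5.28 and 5.64 in WT arrays, a difference of 0.25 (SE 0.16). It was 0.08 without WT replicate 1 and 0.43 without WT replicate 3. Fibroblasts make microfibrils, and the mean of the feeder markers was 6.94, 6.73 and 6.93 in the same Satb1-/- arrays and 6.51, 6.83 and 6.13 in the WT arrays. The part of feeder RNA in the Mfap5 values was not tested. Apobec1, which encodes the cytidine deaminase that edits apolipoprotein B mRNA in the gut, read 5.11, 5.26 and 4.95 in Satb1-/- arrays and 4.72, 5.20 and 5.06 in WT arrays. Its difference was 0.11 (SE 0.14), and between -0.03 and 0.21 when 1 array was left out. Both probe sets were dim: Apobec1 lay just below and Mfap5 slightly above the median gene.

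Of the 9 genes, 5 passed the threshold in the fit over all genes (limma, adjusted p under 0.05), Nanog, Slc2a3, Dppa3, Necap1 and Phc1, all of them higher, where 0.923% of all genes tested were called higher and 0.476% lower. The groups did not overlap, with Satb1-/- above WT, in 6 of the 9 and in 8.18% of all genes. Since this comparison chose the set, nothing is read from the counts. The median difference was 0.64 over the 9 genes and -0.00 over all genes. 3 genes passed without WT replicate 1, WT replicate 2 or Satb1-/- replicate 1-1 (Nanog, Slc2a3 and Necap1), 3 without Satb1-/- replicate 1-2 (Nanog, Dppa3 and Necap1) and 2 without replicate 2-1 (Nanog and Necap1). Without WT replicate 3 there were 5, with Gdf3 in place of Dppa3. In 7 of the 9 genes the SD was lower among the Satb1-/- arrays than among the WT arrays, Dppa3 and Foxj2 being the exceptions.

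With all arrays Nanog had the second largest difference of the 9, after Necap1. Without WT replicate 1 the order turned, with Nanog at 1.00 and Necap1 at 0.99. Within each array the log2 distance from Nanog to a neighbour was taken relative to its mean in WT arrays, so that a positive value means that Nanog had moved further up. Against Necap1 this gap was -0.11, 0.02 and -0.14 in Satb1-/- arrays and 0.18, 0.06 and -0.24 in WT arrays, and the groups overlapped. Against Slc2a3 it was 0.20, 0.16 and 0.18 in Satb1-/- arrays and -0.15, -0.14 and 0.29 in WT arrays, where WT replicate 3 exceeded all Satb1-/- arrays. With all arrays, Nanog had thus not moved further than either of these genes beyond the spread between arrays. Without WT replicate 3 the mean gap to Slc2a3 was 0.33 and the groups separated, while those of Necap1 still overlapped.

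Against the other 6 neighbours the gap was above every WT array in each of the 3 Satb1-/- arrays. For Dppa3 it was 0.24, 0.78 and 0.22 in Satb1-/- arrays and -0.15, 0.04 and 0.11 in WT arrays, with a mean of 0.41 that became 0.23 without Satb1-/- replicate 1-2. With the second Dppa3 probe set it was -0.02, 0.23 and 0.02 in Satb1-/- arrays and -0.08, 0.08 and -0.00 in WT arrays, and the groups overlapped, so the separation holds only for the brighter Dppa3 probe set. For Phc1 it was 0.42, 0.53 and 0.39 in Satb1-/- arrays and -0.15, 0.25 and -0.10 in WT arrays. The mean gaps in Satb1-/- arrays were 0.63 for Gdf3, 0.64 for Foxj2, 0.83 for Mfap5 and 0.98 for Apobec1, the last 3 being the dimmest probe sets of the set. Without WT replicate 3 the mean gap to Gdf3 was 0.32, still with no overlap. The omissions and the second probe set were chosen after seeing the data. Against the median of the 8 neighbours, the gap was 0.43, 0.76 and 0.53 in Satb1-/- arrays and 0.00, 0.09 and -0.08 in WT arrays, a difference of 0.57. It was 0.41 without WT replicate 3 and 0.55 over the 7 neighbours brighter than the median gene, a choice made after seeing the data. A gap within an array shows unequal change and not that a neighbour did not change.

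**Figure D2:**
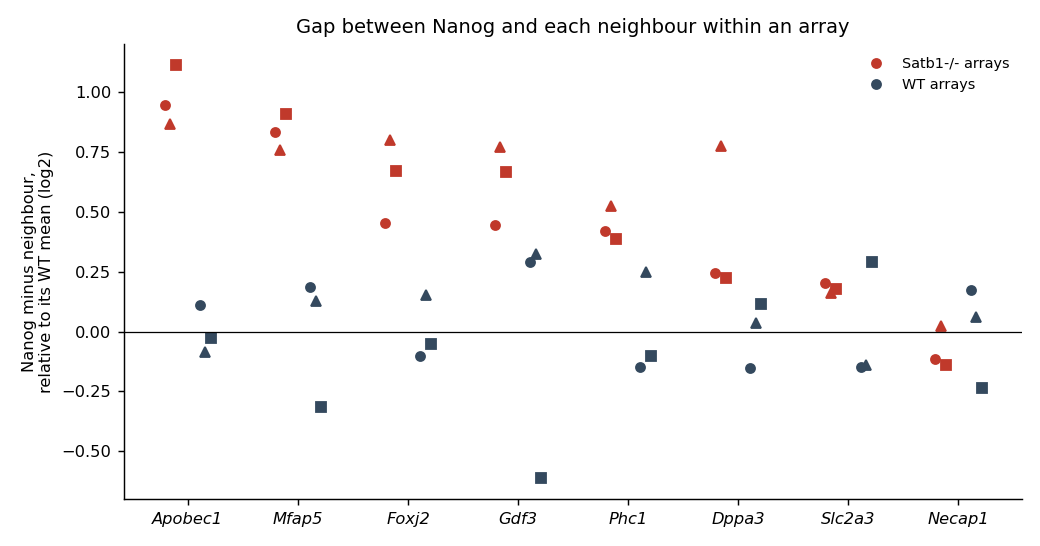
Log2 value of Nanog minus that of each neighbour (x axis) within an array, relative to the mean of that gap in WT arrays (y axis, log2 units), with Satb1-/- arrays in red (circle 1-1, triangle 1-2, square 2-1) and WT arrays in dark blue (circle 1, triangle 2, square 3). With the brightest probe set of each gene, the groups separate for 6 neighbours and overlap for Slc2a3 and Necap1.

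By the gene order of the RefSeq table, 12 tested genes lie from Phc1 to Necap1, and 3 of them are not in the set. Rimklb encodes an enzyme that joins N-acetylaspartate and glutamate. It read 9.82, 9.69 and 9.77 in Satb1-/- arrays and 8.50, 8.78 and 8.78 in WT arrays, a difference of 1.07 (SE 0.11) close to that of Nanog. 1700063H04Rik (-0.08) and C3ar1, the receptor gene for complement fragment C3a (0.25), were dim, and their groups overlapped. Of the 12 genes 6 were called higher and 0 lower (limma, with 0 lower at an unadjusted p under 0.05 as well), where 0.923% of all genes were called higher and 0.476% lower. The 9 brighter than the median gene had a median of 0.67. The count of 6 was 4 without WT replicate 1, WT replicate 2, Satb1-/- replicate 1-1 or Satb1-/- replicate 1-2, and 3 without Satb1-/- replicate 2-1.

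Beyond these 12 genes, differences of similar size were found on both sides. The 100 tested genes nearest Nanog in gene order include the others from Phc1 to Necap1. Of the 100, 48 were brighter than the median gene, and these had a median difference of 0.87. 45 of the 48 had a positive difference, against 53.9% of all brighter genes. 34 were called higher, against 1.7% of all brighter genes, and 16, with Necap1 among them, exceeded Nanog. The nearest such gene beyond Phc1 was A2m, a protease inhibitor gene, at 2.89 (SE 0.28), and beyond Necap1 it was Pex5, a receptor gene for peroxisomal import, at 1.32 (SE 0.15). The 52 dimmer genes among the 100 held 1 of the 35 called higher. Beyond the 100, the 402 brighter genes of chromosome 6 had a median of 0.06, with 36 called higher and 19 lower. On the side of Necap1 raised genes went on past the 100, among them Ncapd2 (1.12) and Mrpl51 (1.09). On the side of Phc1 the outermost gene of the 100 called higher was Adipor2 (1.55). The brighter genes beyond it within the 100 were Dcp1b (0.43), Ankrd26 (-0.02), Bms1 (-0.02) and Csgalnact2 (0.07), none of them called. Past the 100 on that side the next brighter genes were Hnrnpf (-0.09) and Zfp637 (0.10). The 9500 brighter genes of all other chromosomes had a median of 0.02, with 97 called higher and 65 lower. A stretch of raised genes in this region was already known from these arrays when the set was made, so these medians and counts describe it and do not test it.

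**Figure D3:**
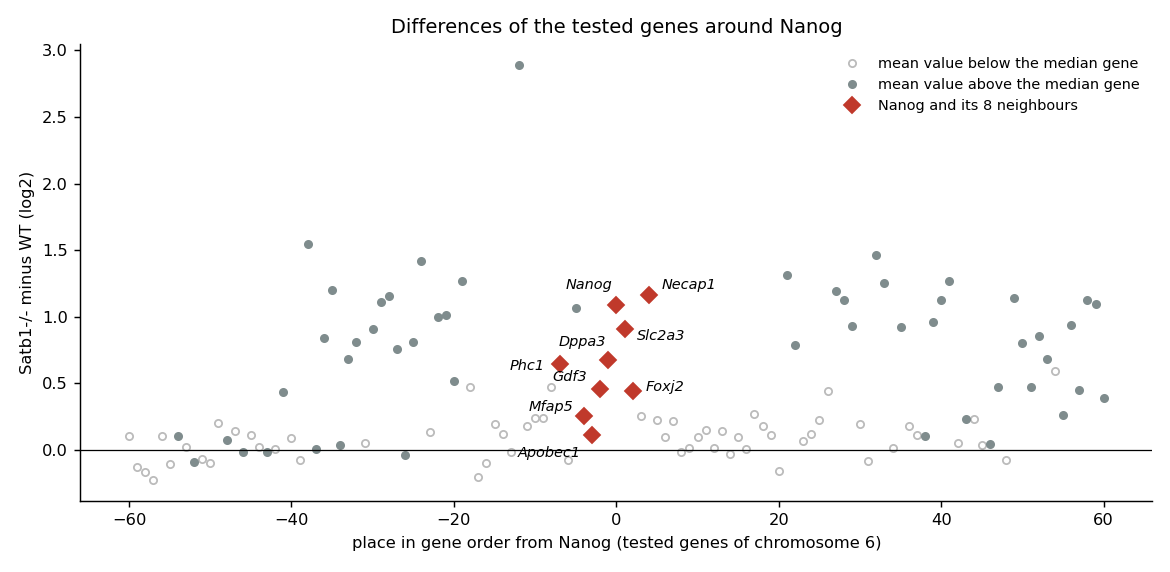
Difference of each tested gene, Satb1-/- minus WT in log2 units (y axis), by its place in gene order from Nanog (x axis, 60 genes on each side); red diamonds are Nanog and its 8 neighbours, filled grey points other genes brighter than the median gene and open points dimmer ones. Nanog (1.09) lies among the filled points on both sides, most of the open points lie close to 0, and the filled points at the far left do so too.

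The genes whose profiles over the 6 arrays were most like that of Nanog were found by the Euclidean distance between log2 values, each gene centred on its own mean. The 8 nearest genes outside the set were Rimklb (distance 0.16), Rab27a, Cd9, Ncapd2, Fkbp4, Bcl2l13, Kdm5a and Ak4 (0.21), with Pearson's r from 0.99 to 1.00 across the 6 arrays. 6 of the 8 lie on chromosome 6. The others are Rab27a on chromosome 9, which encodes a GTPase of vesicle transport (difference 1.18), and Ak4 on chromosome 4, which encodes a mitochondrial adenylate kinase (difference 1.16). Of the 100 genes most like Nanog 54 lie on chromosome 6, which holds 5.53% of the genes placed on a chromosome. Within the set, Necap1 ranked at 32 of all genes by this distance, Slc2a3 at 52, Phc1 at 150, Dppa3 at 201, Foxj2 at 412, Mfap5 at 1634, Gdf3 at 1667 and Apobec1 at 3539. The distance carries the difference between the groups that chose the set, and all 6 points share their arrays.

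Regulators and partners of Nanog were higher in part. Of 20 listed genes 17 were measured. 6 rose and 0 fell (limma, adjusted p under 0.05), where 0.923% of all genes were called higher and 0.476% lower. At an unadjusted p under 0.05, 9 were higher and 2 lower, where 5.92% of all genes were higher and 4.55% lower. The median difference was 0.30 against -0.00 over all genes. The list mean was 8.19, 8.11 and 8.18 in Satb1-/- arrays and 7.68, 7.65 and 7.91 in WT arrays. Several of these genes were already known to be higher in these arrays when the list was made.

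Tbx3, a T-box factor of the naive state, read 7.22, 7.48 and 7.23 in Satb1-/- arrays and 5.27, 5.76 and 6.12 in WT arrays (difference 1.59, SE 0.19, limma adjusted p = 0.00215). Nr5a2, a nuclear receptor that binds the Oct4 gene, read 7.98, 7.53 and 7.83 in Satb1-/- arrays and 6.38, 6.27 and 6.74 in WT arrays (1.32, SE 0.15, limma adjusted p = 0.00209). Both exceeded Nanog in the size of the difference and passed without any one array. Prdm14, a repressor of differentiation genes, differed by 1.09 (limma adjusted p = 0.00622) and missed the threshold without Satb1-/- replicate 1-2 or 2-1 (differences over all omissions 0.95 to 1.23). Klf4, a Kruppel-like factor, differed by 0.97 (limma adjusted p = 0.0483) and passed, of the sets with 1 array left out, only without WT replicate 3 (0.80 to 1.24).

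Klf5 (0.60) and Esrrb (0.56), named after their values were seen, also rose (limma adjusted p = 0.0166 and 0.0435). Klf5 missed the threshold without any one Satb1-/- array, and Esrrb without WT replicate 1 or any one Satb1-/- array. The count of 6 was 3 without Satb1-/- replicate 1-1, 2 without 1-2, 2 without 2-1, 4 without WT replicate 1 and 7 without WT replicate 3. Pou5f1, the Oct4 gene, was also named after its values were seen. It read 9.82, 9.78 and 9.90 in Satb1-/- arrays and 10.13, 10.00 and 10.53 in WT arrays, so that it lay below WT in every Satb1-/- array without passing the test (-0.39, limma adjusted p = 0.309). Nacc1, named after its values were seen, also lay below WT in every Satb1-/- array without passing the test (-0.49, limma adjusted p = 0.165). Nacc1 lies on chromosome 8, but the ID number of its probe set lies between those of Necap1 and Tcf7l1 on chromosome 6. Which transcript that probe set reads was not tested. The remaining 3 listed genes were not analysed here.

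Relatives of the neighbours, genes of the same family or complex on other chromosomes, had differences around 0 with a few exceptions. Of 49 listed genes 44 were measured, none of them on chromosome 6. 2 rose and 0 fell, where 0.923% of all genes were called higher and 0.476% lower. At an unadjusted p under 0.05 in limma, 6 were higher and 3 lower, where 5.92% of all genes were higher and 4.55% lower, and with 1 array left out between 1 and 3 were called higher, with 1 called lower without WT replicate 3. The median difference was 0.03. In the family of Slc2a3, 0 of 9 other glucose transporter genes passed the test (0 at an unadjusted p under 0.05 in either direction). Slc2a12 (-0.23) and Slc2a9 (-0.15) lay furthest from 0. Of the genes that work with Phc1 in Polycomb repressive complex 1, 0 of 10 passed the test. At an unadjusted p under 0.05, 2 were higher and 1 lower. Phc3 (0.32) and Pcgf2 (0.28) lay furthest from 0. Of 6 genes of the AP2 adaptor and its Necap partner, which act with Necap1 at coated vesicles, 0 passed the test. At an unadjusted p under 0.05, 1 was higher and 0 lower. 6 of 6 had a positive difference, with Ap2m1 at 0.34 and Ap2s1 at 0.26.

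The genes that rose were Bmp4 and Rbm47. Bmp4, a growth factor gene of the family of Gdf3, read 7.51, 7.11 and 7.34 in Satb1-/- arrays and 6.24, 6.08 and 6.24 in WT arrays (1.14, SE 0.12, limma adjusted p = 0.00148) and passed without any one array. Rbm47, a cofactor gene of APOBEC1 editing, read 7.42, 7.64 and 7.65 in Satb1-/- arrays and 6.54, 7.01 and 6.90 in WT arrays (0.75, SE 0.14, limma adjusted p = 0.0271). It missed the threshold without WT replicate 1 or any one Satb1-/- array. In the other lists 0 genes passed the test. Dppa4 differed by -0.39 and Dppa5a by 0.38 (1 of 3 Dppa genes lower at an unadjusted p under 0.05). Dppa4 and Dppa2 lie on chromosome 16. The ID number of the Dppa4 probe set falls among those of chromosome 2, and that of Dppa2 among those of chromosome 19. Which transcripts these 2 probe sets read was not tested. Foxj3 differed by 0.22 and Foxj1 by -0.06, and Fbn2 by 0.09 and Mfap3 by 0.04 (none at an unadjusted p under 0.05 in this last pair of lists).

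**Figure D4:**
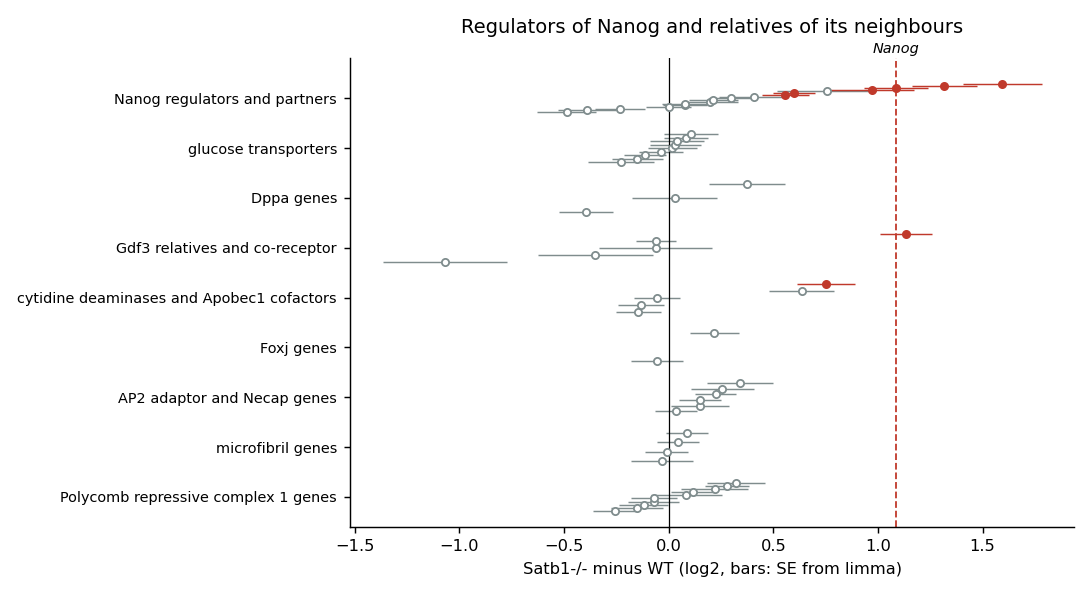
Difference of each measured gene, Satb1-/- minus WT in log2 units (x axis, bars are the SE from limma), for the regulators and partners of Nanog and for relatives of its neighbours on other chromosomes (y axis, by list); filled red points passed the limma threshold and open points did not, and the dashed line is the difference of Nanog (1.09). The filled points are 6 in the top list and 1 each in the lists around Gdf3 and Apobec1.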

How the data were processed

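Biotin-labelled RNA of 6 ES cell samples was hybridised to 1-colour arrays. The authors summarised probe sets with RMA, per the submitters' processing notes, and deposited them on the log2 scale (RMA version and settings: not given in the sources used). Of 35557 probe sets 21789 named exactly 1 gene in the platform annotation, 1621 several and 12147 none. The brightest probe set of each gene was kept (19938 genes). Entrez IDs placed 19856 of them in the gene order of RefSeq GRCm38.p6. No source names a build for the array, so no gene coordinates are printed apart from those of the GRCm38.p6 promoter windows.

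Groups were compared with limma 3.58.1 (R 4.3.3; lmFit, eBayes, no covariate), with Benjamini-Hochberg adjustment over all genes and calls at an adjusted p under 0.05. The steps were tested on simulated data. The genes described and all gene lists were chosen with earlier results of these arrays known. Named genes were the 9 of the set, Satb1, the other genes between them, the 8 likest to Nanog, up to 4 called genes of each list (or the 2 with the largest difference) and the 2 brightest markers of each cell type. Arrays have no read depth; their number limits the precision.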

Additional observations from a re-analysis of the deposited data

How the results depend on the processing

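17 settings gave 124 values beside those reported, of which 100 were classed as the same, 24 as moved and 0 turned sign. Counts that fell from 6 to 4 are among the 100, so this class allows some loss of calls. The difference of Nanog (1.09) lay between 1.00 and 1.15 with 1 array left out, and Nanog and Necap1 passed the threshold in all 14 settings that gave calls, Slc2a3 in 11, Phc1 in 6 and Dppa3 in 5. The count of 5 members was 2 to 5 with 1 array left out, 2 with Satb1-/- arrays 1-1 and 1-2 averaged as 1 sample, 3 with each array centred on its median and 3 at an adjusted p under 0.01. With those arrays averaged, the 6 genes from Phc1 to Necap1 became 3, the 6 regulators 3 and the 2 relatives 1, in a fit with fewer samples. Centring, which kept all arrays, also gave 1 relative. The cause of these changes was not tested. With 1 array left out the counts for that stretch, the regulators and the relatives were 3 to 6, 2 to 7 and 1 to 3. In addition, 1 relative was lower without WT replicate 3. The gap of Nanog over the neighbour median (0.57) was 0.41 to 0.66 with 1 array left out, the lowest without WT replicate 3. With the 10 genes on each side of Nanog as neighbours, of which 12 are dimmer than the median gene, their median was 0.25 where that of the 8 neighbours was 0.55, and the gap was 0.81. No paired analysis was possible because the numbers of the groups are not shared. No measure of background was used, so how far signal limits the dim probe sets of Apobec1 and Mfap5 was not tested.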

Other observations

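Between Necap1 and Pex5 lie 16 tested genes, all dimmer than the median gene, most of them C-type lectin receptor genes of the Clec4 group, which act in myeloid and dendritic cells. Among the 10 Clec4 genes measured on chromosome 6, 9 are within 20 places of Nanog. Their mean log2 values were 2.80 to 4.14, their differences lay between -0.16 and 0.22 with a median of 0.10, and 0 were called by limma (0 at an unadjusted p under 0.05). These genes were chosen after their values were seen.

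Lefty1, a target and inhibitor of Nodal signalling listed beside Gdf3 and named after its values were seen, read 5.94, 5.99 and 5.85 in Satb1-/- arrays and 6.62, 6.47 and 7.89 in WT arrays. Like Gdf3, it was highest in WT replicate 3. Its groups did not overlap, and it did not pass the test (-1.07, SE 0.30, limma adjusted p = 0.147). Apobec3, an antiviral deaminase gene of the family of Apobec1, was also named afterwards. It read 8.02, 8.13 and 8.14 in Satb1-/- arrays and 7.33, 7.84 and 7.21 in WT arrays (0.64, SE 0.16, limma adjusted p = 0.0899).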
